A study of Mus musculus with 6 samples.

Results

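The fibroblast growth factor (FGF) ligands, their receptors and the inhibitors and targets that FGF signalling switches on were followed in the mouse line MC3T3-E1, pre-osteoblasts derived from newborn calvaria. The members were chosen by name, though with earlier results of these data known. They were every gene called Fgf with a number, Fgfr1 to Fgfr4, Fgfrl1, Kl, Klb and Frs2. The 4 Sprouty genes, Spred1, Spred2, Dusp4, Dusp5, Dusp6, Etv4 and Etv5 were also included. Of 41 such genes, 39 had a feature on the arrays that could be named through its RefSeq transcript, out of 17298 named genes in all. No feature was matched to Fgf6 or Dusp5, which were not analysed here. Differentiated cells (3 arrays) had spent 15 days in alpha MEM and 10% serum with ascorbic acid at 50 µg/mL and glycerol-2-phosphate at 10 mM. Undifferentiated cells (3 arrays) were grown in that medium and serum without either addition. By the labels all 6 cultures, from passages 5 to 12, received 100 nM 1,25-dihydroxyvitamin D3, the active hormone of the vitamin D receptor, for 24 h, so the comparison below is between 2 cell states under 1 labelled treatment and is not designed to measure the response to it. The image names inside the files mark the hormone on the undifferentiated arrays but only the treatment time on the differentiated arrays. The same treatment in both groups therefore rests on the labels, and a difference in treatment cannot be told apart from differentiation in any value below. Vehicle-treated arrays were not analysed here. The design text calls the samples biological triplicates of 1 cell line.

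FGFs are secreted proteins that bind receptor tyrosine kinases together with heparan sulfate chains on the cell surface. The activated receptor phosphorylates the docking protein FRS2, which recruits GRB2 and SOS and drives the RAS-RAF-MEK-ERK kinase cascade. ERK activity induces its own brakes, among them the Sprouty and Spred proteins and the dual-specificity phosphatases, and the ETS factors Etv4 and Etv5. In bone, FGF receptors set the balance between proliferation and maturation of osteoblasts, and Fgf23 is the phosphate-regulating hormone made by osteocytes. The FGF11 subfamily (Fgf11 to Fgf14) stays inside the cell and does not act as receptor ligands in the usual way.

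Each value below is the log2 of the expression intensity that the authors computed per feature with RMA, and each difference is differentiated minus undifferentiated on that scale. A difference was called when limma's moderated test gave an adjusted p under 0.05 after Benjamini-Hochberg adjustment over all 17298 genes. The control feature of 6131 random probes read between 6.71 and 6.81 on the differentiated arrays and between 6.59 and 6.77 on the undifferentiated arrays. Its name carries the GC range 20 to 30, so it may not represent the background of GC-rich probes. Of the undifferentiated arrays, replicate 3 differed from the other two, lay nearer the differentiated arrays, and shared the start of its array number with them. Undifferentiated replicates 1 and 2 shared another start. Fits without replicate 3 therefore cannot tell array number from differentiation. Image names carried one date-like code per group, so imaging and differentiation cannot be told apart. Since the RNA came from whole cultures, fewer cells of a type and less RNA per cell cannot be told apart either.

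The cells carried osteoblast transcripts in both states. Of 9 osteoblast markers, 8 were above the control on all 6 arrays, and 4 of the 9 were called higher in differentiated cells. Alpl, the alkaline phosphatase of mineralizing cells, was 12.97, 12.87 and 12.98 in differentiated cells, against 9.38, 9.09 and 9.26 in undifferentiated cells. Of 5 osteocyte markers 4 were above the control on all 6 arrays, and of 5 endothelial markers 3 were. The osteocyte marker Phex and the endothelial marker Cdh5 were at or below it on all 6. Being above the control did not set the osteoblast list apart. All 5 adipocyte, all 5 epithelial, all 4 measured skeletal muscle and all 4 measured macrophage markers were above it on all 6 arrays, and 4 of 5 chondrocyte markers. Dmp1 was the 1 osteocyte marker called, 4.64-fold higher in differentiated cells (limma adjusted p = 0.000272). Of the endothelial markers 1 was called higher, Pecam1 (limma adjusted p = 0.0493).

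Differentiated cells carried much more Fgf1 transcript, and more transcript of the receptor Fgfr2 and of the feedback inhibitors Spry1 and Spry4. Fgf8, Fgf14 and Fgf17 were called higher by 1.47- to 1.62-fold. Transcripts of the docking protein Frs2, the inhibitor Spred1 and the ERK-pathway phosphatases Dusp4 and Dusp6 were called lower in differentiated cells. Of the 39 members, 7 were called higher, 4 lower and 28 did not pass. These are 17.9% and 10.3% of the members, beside 8.58% of all genes called higher and 10.9% called lower (19.5% in either direction). The share called lower was thus close to the background, while the share called higher rests on 7 genes. On all 6 arrays 34 of the 39 were above the control. Such a reading was usual: per array only 5.61% to 6.80% of all features were at or below the control. In 15 members (38.5%) every differentiated array was above every undifferentiated one and in 4 (10.3%) below, together 48.7%, beside 22.7%, 17.4% and 40.1% of all genes. At least 2-fold changes were called in 2 members, Fgf1 and Spry1, beside 3.57% of all genes. The median difference of the members was 0.21, beside 0.08 for all genes. Fgf1, Fgfr2, Spry1 and Spry4 passed in all 19 ways of fitting that were run, and the other 7 calls did not.

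**Figure D1:**
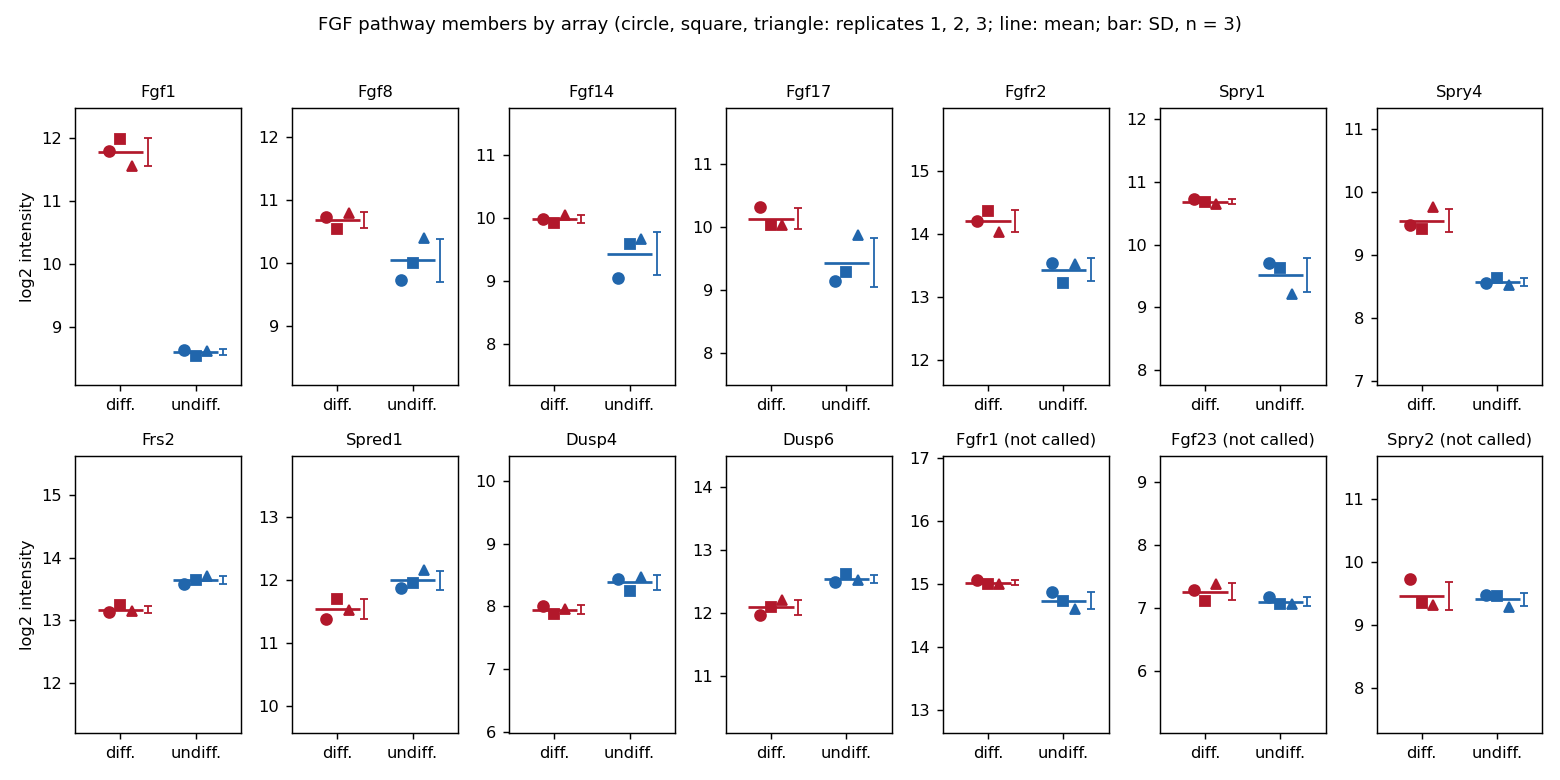
Log2 intensity of the 11 called members and of Fgfr1, Fgf23 and Spry2, which were not called, with differentiated arrays (red) left of undifferentiated arrays (blue). Symbols mark replicates 1 to 3, horizontal lines the means and bars the SD (n = 3), and every panel spans the same width of log2 values, so that the gap for Fgf1 (3.18) can be compared by eye with that for Dusp6 (-0.45).

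The sequences just upstream of 4 called members are given because they form 2 contrasting pairs: the receptor Fgfr2 was higher and its docking protein Frs2 lower, and the inhibitor Spry1 was higher and the inhibitor Dusp6 lower. Each run covers the 250 bases before the RefSeq start in build GRCm38.p6, read 5′ to 3′ on the gene's strand, from RefSeq. Capitals mark matches, on either strand, to any of 6 motifs: the cAMP response element (TGACGTCA), the AP-1 site (TGANTCA), an ETS site (CCGGAAG), the GC box (GGGCGG), the TATA box (TATAAA) and a nuclear receptor half-site (AGGTCA).
Fgfr2, chr7:130266809-130267058, minus strand: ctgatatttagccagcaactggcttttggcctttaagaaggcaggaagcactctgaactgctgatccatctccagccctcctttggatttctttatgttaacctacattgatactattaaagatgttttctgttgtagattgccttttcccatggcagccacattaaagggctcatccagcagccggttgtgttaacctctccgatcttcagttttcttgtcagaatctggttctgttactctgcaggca
Frs2, chr10:117148475-117148724, minus strand: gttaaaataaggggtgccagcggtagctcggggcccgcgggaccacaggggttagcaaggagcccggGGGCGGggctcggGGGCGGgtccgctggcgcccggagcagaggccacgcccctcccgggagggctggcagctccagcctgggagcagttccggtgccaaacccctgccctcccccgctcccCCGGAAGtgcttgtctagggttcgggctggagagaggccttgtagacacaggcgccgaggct
Spry1, chr3:37639697-37639946, plus strand: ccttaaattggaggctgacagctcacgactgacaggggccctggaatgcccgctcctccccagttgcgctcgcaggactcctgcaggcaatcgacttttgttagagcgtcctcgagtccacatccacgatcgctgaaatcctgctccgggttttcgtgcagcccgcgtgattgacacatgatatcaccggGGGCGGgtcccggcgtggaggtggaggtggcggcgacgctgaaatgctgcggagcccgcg
Dusp6, chr10:99262981-99263230, plus strand: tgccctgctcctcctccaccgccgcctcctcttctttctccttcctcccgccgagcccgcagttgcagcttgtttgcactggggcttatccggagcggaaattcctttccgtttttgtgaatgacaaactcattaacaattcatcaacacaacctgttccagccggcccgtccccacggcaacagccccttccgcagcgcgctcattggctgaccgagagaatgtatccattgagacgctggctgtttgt

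The Frs2 window held 2 GC boxes and 1 ETS site, and the Spry1 window held 1 GC box. The Fgfr2 and Dusp6 windows held no match to these 6 letter strings, which says nothing about which factors bind there. Over 32851 windows of the same length from 27025 genes, 32.7% held a GC box, 14% the nuclear receptor half-site, 12.4% a TATA box, 6.91% the ETS site, 6.75% the AP-1 site and 1.55% the cAMP response element. GC content was 44% for Fgfr2, 71.6% for Frs2, 62.4% for Spry1 and 56.4% for Dusp6. No match was shared by all 4 windows.

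Of the 21 measured ligands Fgf1 had the largest difference. Fgf1, the broad-acting acidic FGF that binds all FGF receptors, was 11.80, 11.99 and 11.55 in differentiated replicates 1 to 3, against 8.63, 8.54 and 8.62 in undifferentiated replicates 1 to 3. Every differentiated array lay far above every undifferentiated one, and the undifferentiated arrays, replicate 3 included, agreed closely with each other (SD 0.05, n = 3). The mean was 11.78 ± 0.22 in differentiated cells and 8.60 ± 0.05 in undifferentiated cells (SD, n = 3 each), a difference of 3.18 (SE 0.14) or 9.08-fold (limma, adjusted p = 3.31e-07). With any 1 array left out the difference was 3.08 to 3.30, and set against undifferentiated replicate 3 alone it was 3.16. In undifferentiated cells Fgf1 was already above the random-probe control, by at least 1.85.

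Fgf2, the basic FGF and nearest relative of Fgf1, did not pass. It was 10.95, 10.42 and 10.65 in differentiated cells, against 9.65, 9.92 and 10.71 in undifferentiated cells (difference 0.58, 95% interval 0.04 to 1.13, limma adjusted p = 0.114). The groups overlapped through undifferentiated replicate 3, the highest array of its group. Without that replicate the difference was 0.89 (limma adjusted p = 0.000326), and against that replicate alone it was -0.03.

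In the FGF8 subfamily, which includes the skeletal growth regulator Fgf18, 2 of 3 measured genes were called higher. Fgf8 was 10.73, 10.55 and 10.79 in differentiated cells, against 9.73, 10.00 and 10.40 in undifferentiated cells. Fgf17 was 10.33, 10.04 and 10.04 in differentiated cells, against 9.15, 9.29 and 9.88 in undifferentiated cells. In both genes the groups did not overlap, and undifferentiated replicate 3 was the nearest array to the differentiated ones. Fgf8 was 1.57-fold higher (difference 0.65, SE 0.17, limma adjusted p = 0.0267) and Fgf17 1.62-fold higher (difference 0.69, SE 0.19, limma adjusted p = 0.0289). Against undifferentiated replicates 1 and 2 the differences were 0.83 for Fgf8 and 0.91 for Fgf17, and against replicate 3 they were 0.29 and 0.25 (limma adjusted p = 0.252 and 0.353). With any 1 array left out other than undifferentiated replicate 3, neither passed (adjusted p = 0.0529 to 0.113 for Fgf8 and 0.0647 to 0.139 for Fgf17). Fgf18 was 10.80, 10.78 and 10.84 in differentiated cells, against 10.53, 10.32 and 10.69 in undifferentiated cells. Its groups did not overlap either, but the difference of 0.29 did not pass (limma adjusted p = 0.139). Without undifferentiated replicate 3 it was 0.38 (limma adjusted p = 0.0234).

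In the intracellular FGF11 subfamily, partners of voltage-gated sodium channels, 1 of 4 genes was called. Fgf14 was 9.99, 9.92 and 10.04 in differentiated cells, against 9.04, 9.59 and 9.66 in undifferentiated cells, with no overlap and with undifferentiated replicate 1 the lowest array. The difference was 0.55 (SE 0.17, 1.47-fold, limma adjusted p = 0.0437). Against undifferentiated replicate 3 alone it was 0.32. The fit with the array number's start as a covariate gives that same difference of 0.32, and there it did not pass (limma adjusted p = 0.295). The call also ended with equal array medians, with cyclic loess, and with any 1 array left out other than undifferentiated replicate 3 (adjusted p = 0.0839 to 0.141 for those 5 arrays). A second Fgf14 feature, for another transcript, was 6.88, 7.05 and 6.87 in differentiated cells, against 6.52, 6.57 and 6.67 in undifferentiated cells, where it was at or below the control. Fgf11 was 8.74, 8.51 and 8.45 in differentiated cells, against 7.80, 8.18 and 8.26 in undifferentiated cells (difference 0.49, limma adjusted p = 0.0509), just outside the threshold. Fgf13 was 8.34, 8.26 and 8.33 in differentiated cells, against 8.01, 8.14 and 8.19 in undifferentiated cells (difference 0.20, limma adjusted p = 0.259). Fgf12 lay at the control, with 0 differentiated and 2 undifferentiated arrays above it.

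The FGF7 subfamily holds the ligands by which mesenchyme signals to epithelium. Fgf7, keratinocyte growth factor, was 14.17, 14.48 and 14.23 in differentiated cells, against 13.92, 13.99 and 14.42 in undifferentiated cells. It read at least 7.33 above the control on every array, and the groups overlapped (difference 0.18, 95% interval -0.17 to 0.54, limma adjusted p = 0.43). Fgf10, its relative in limb and lung outgrowth, read only 0.04 to 0.28 above the control and gave a difference of 0.01. Fgf3 gave a difference of 0.50 and Fgf22 one of 0.31, with overlapping groups in both. Undifferentiated replicate 3 was the highest array of its group for all 4 of these genes. For Fgf22 it was 9.05, above the differentiated values of 8.84, 8.61 and 8.88.

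The endocrine FGFs act at a distance with Klotho co-receptors. Fgf23, the osteocyte phosphate hormone and a known target of 1,25(OH)2D3 in bone, was 7.29, 7.12 and 7.38 in differentiated cells, against 7.18, 7.07 and 7.06 in undifferentiated cells. It read only 0.29 to 0.59 above the control, the groups overlapped, and the difference of 0.16 (95% interval -0.12 to 0.45) did not pass (limma adjusted p = 0.373). Fgf21, a metabolic hormone of liver and fat, was 9.35, 9.39 and 9.62 in differentiated cells, against 8.74, 8.80 and 9.42 in undifferentiated cells (difference 0.46, limma adjusted p = 0.0973). Fgf15, the ileal bile acid signal of the mouse, was 7.72, 7.62 and 7.70 in differentiated cells, against 7.08, 7.34 and 8.03 in undifferentiated cells. Undifferentiated replicate 3 exceeded all differentiated arrays for Fgf15, so that the difference was 0.47 without it and -0.36 against it alone.

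Of the remaining ligands, Fgf16 was 8.68, 7.81 and 7.95 in differentiated cells, against 7.30, 7.48 and 7.79 in undifferentiated cells (difference 0.62, limma adjusted p = 0.0725). Fgf9, a growth factor of cartilage and bone, lay within -0.14 to 0.18 of the control, and Fgf20 gave a difference of 0.25 with overlapping groups. Fgf4 and Fgf5 were at or below the control on all 6 arrays, and no fold is given for them. Over the 21 measured ligands, 4 were called higher, none lower and 17 did not pass, while 9 had an unadjusted p under 0.05. The difference was positive for 20 of the 21, Fgf12 being the exception, with a median of 0.29. Genes of middle to low level had positive medians on these arrays too. Among all genes with a mean log2 value of 7.93 to 9.75, cut into 3 bins of equal size, the median difference was 0.22 to 0.23 per bin. These were the highest medians, and many ligands lay outside these bins. The median was 0.07 and 0.17 in the dimmer bins, 0.10 at the level of Fgf1 and Fgf17, and -0.04 at that of Fgf8. Across all genes 59.4% had a positive difference. Without undifferentiated replicate 3, 14 of the 21 ligands passed, all higher, beside 24.8% of all genes called higher in that fit. Array number and differentiation coincide in that fit and cannot be told apart.

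**Figure D2:**
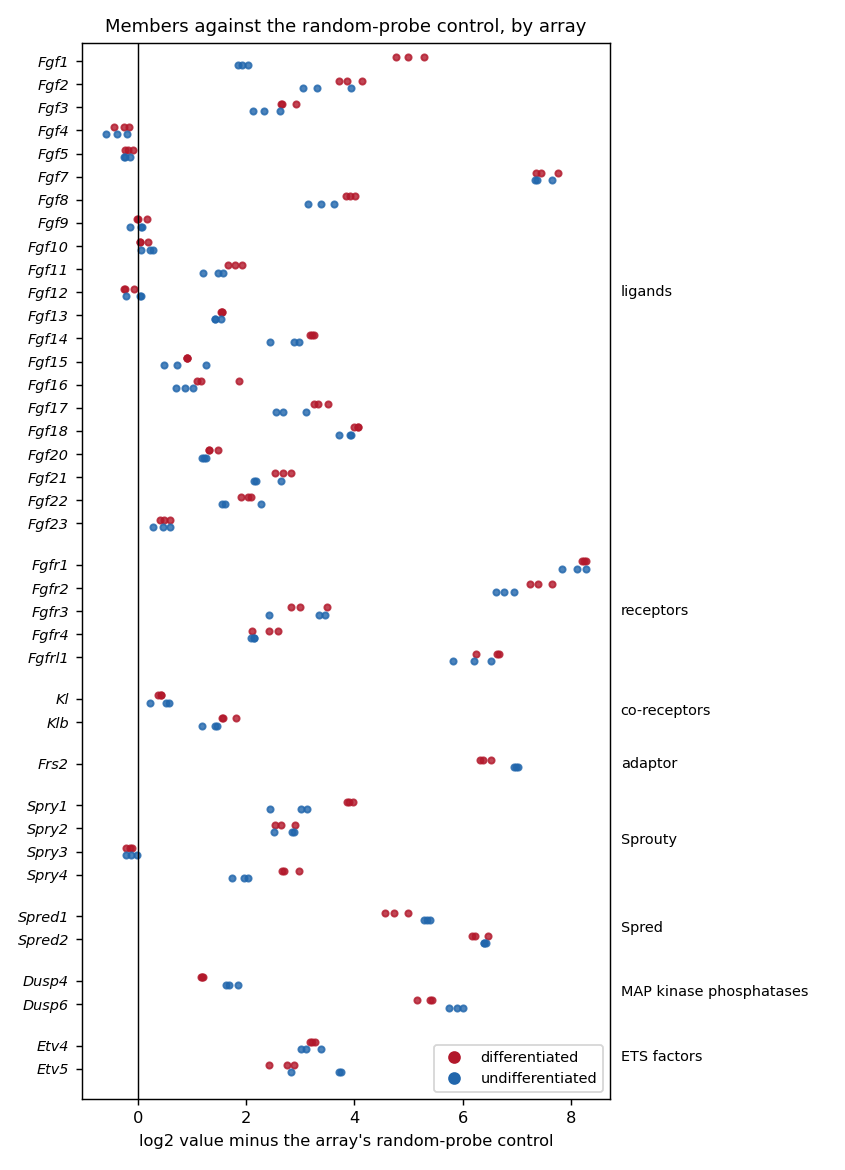
Log2 value of each measured member minus the random-probe control of the same array, 3 differentiated (red, upper row) and 3 undifferentiated arrays (blue, lower row) per gene. Fgf4, Fgf5 and Spry3 lie at or below 0 on all 6 arrays, Fgf23 within 0.29 to 0.59 of it, and Fgf7, Fgfr1 and Fgfr2 at least 6.61 above it; gaps to the control differ between probes and do not rank genes.

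Of 5 receptor genes 1 was called, Fgfr2, which was higher. Fgfr2, the receptor whose activating mutations fuse skull sutures early in humans, was 14.21, 14.37 and 14.03 in differentiated cells, against 13.54, 13.22 and 13.53 in undifferentiated cells. The groups did not overlap, and undifferentiated replicate 3 lay with replicates 1 and 2. The difference was 0.78 (SE 0.15, 95% interval 0.45 to 1.10), or 1.71-fold (limma, adjusted p = 0.00537). It stayed between 0.67 and 0.86 with any 1 array left out. This reading came from the feature for transcript NM_201601. A second Fgfr2 feature, for NM_010207, was 7.28, 7.03 and 6.93 in differentiated cells, against 6.76, 6.80 and 6.91 in undifferentiated cells, close to the control, and did not pass over all features (difference 0.26, limma adjusted p = 0.199).

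Fgfr1, the main receptor of mesenchymal cells, was 15.06, 14.99 and 14.99 in differentiated cells, against 14.87, 14.73 and 14.60 in undifferentiated cells. Every differentiated array was above every undifferentiated one, by a small margin, and the difference of 0.28, whose 95% interval includes 0 and reaches 0.56, did not pass (limma adjusted p = 0.138). Fgfrl1, a receptor without a kinase domain that can act as a decoy, was 13.45, 13.39 and 13.03 in differentiated cells, against 13.11, 12.82 and 12.60 in undifferentiated cells. Its difference of 0.45 did not pass (limma adjusted p = 0.0865), though it did in 7 of 19 fits, among them quantile normalization and cyclic loess. Fgfr3, a brake on cartilage growth, was 9.80, 10.21 and 9.62 in differentiated cells, against 10.05, 9.96 and 9.20 in undifferentiated cells, with overlapping groups. Its difference was -0.13 without undifferentiated replicate 3 and 0.68 against that array alone. Fgfr4 gave a difference of 0.35 with overlapping groups (limma adjusted p = 0.102).

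Neither co-receptor passed. Kl, the Klotho gene that Fgf23 needs in the kidney, read 0.24 to 0.58 above the control in these cells, with a difference of 0.08 (95% interval -0.20 to 0.35). Klb, the co-receptor of Fgf21 and Fgf15, was 8.36, 8.53 and 8.36 in differentiated cells, against 7.77, 8.04 and 8.24 in undifferentiated cells. The Klb groups did not overlap, and the difference of 0.40 did not pass (limma adjusted p = 0.0817). Frs2, the docking protein that links the receptors to RAS and SHP2, was 13.13, 13.24 and 13.15 in differentiated cells, against 13.58, 13.64 and 13.71 in undifferentiated cells. All differentiated arrays lay below all undifferentiated ones. Frs2 was 1.39-fold lower (difference -0.47, SE 0.12, limma adjusted p = 0.0229), with a difference of -0.54 against undifferentiated replicate 3 alone. The call ended with cyclic loess and in 4 of the 6 fits with 1 array left out, namely each differentiated replicate and undifferentiated replicate 2 (adjusted p = 0.0603 to 0.0944), while the difference stayed at -0.50 to -0.44.

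The feedback inhibitors differed in both directions. Of 4 Sprouty genes 2 were called higher, of 2 Spred genes 1 was called lower, and both measured phosphatases were called lower. Spry1, a membrane-associated inhibitor of RAS-ERK signalling downstream of FGF receptors, was 10.72, 10.68 and 10.64 in differentiated cells, against 9.71, 9.62 and 9.21 in undifferentiated cells. Spry4, another Sprouty inhibitor of the same step, was 9.48, 9.41 and 9.76 in differentiated cells, against 8.55, 8.64 and 8.52 in undifferentiated cells. In both genes the groups were well apart, and undifferentiated replicate 3 was the array farthest from the differentiated ones. Spry1 was 2.24-fold higher (difference 1.17, SE 0.15, limma adjusted p = 0.000591) and Spry4 1.97-fold higher (difference 0.98, SE 0.14, limma adjusted p = 0.000913). Their differences stayed at 1.01 to 1.26 and 0.87 to 1.05 with any 1 array left out.

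Spry2, the most studied Sprouty and an ERK-induced gene in many cells, was 9.72, 9.35 and 9.32 in differentiated cells, against 9.47, 9.46 and 9.28 in undifferentiated cells. The groups overlapped, and the difference of 0.06 (95% interval -0.26 to 0.38) has an upper bound below the difference of Spry4. It changed sign between the deposited values and quantile normalization (-0.0039) or cyclic loess (-0.06). Spry3 was at or below the control on all 6 arrays.

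Spred1, which recruits neurofibromin to switch RAS off, was 11.38, 11.70 and 11.52 in differentiated cells, against 11.87, 11.95 and 12.16 in undifferentiated cells. The groups did not overlap, and the gene was 1.37-fold lower (difference -0.46, SE 0.14, limma adjusted p = 0.0442). The call ended in 7 of 19 fits, among them quantile normalization, cyclic loess and the fits without each differentiated replicate or undifferentiated replicate 2 (adjusted p = 0.0621 to 0.17 for those 4 arrays). Spred2, its relative, was 13.27, 12.94 and 12.96 in differentiated cells, against 13.03, 13.01 and 13.16 in undifferentiated cells (difference -0.01, 95% interval -0.31 to 0.29).

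Dusp6, the cytoplasmic phosphatase that removes phosphate from ERK and is widely read as a sign of FGF-ERK activity, was 11.97, 12.10 and 12.21 in differentiated cells, against 12.49, 12.62 and 12.52 in undifferentiated cells. All differentiated arrays were below all undifferentiated ones, and the distance was nearly the same to undifferentiated replicate 3 (-0.42) as to replicates 1 and 2 (-0.46). The gene was 1.36-fold lower (difference -0.45, SE 0.13, limma adjusted p = 0.0334). The call ended in 9 of 19 fits, among them quantile normalization, cyclic loess and every fit with 1 array left out other than undifferentiated replicate 3 (adjusted p = 0.0521 to 0.134 for those 5 arrays). Dusp4, a nuclear phosphatase of ERK and JNK, was 8.01, 7.88 and 7.96 in differentiated cells, against 8.44, 8.25 and 8.46 in undifferentiated cells. It too had no overlap, at 1.35-fold lower (difference -0.44, SE 0.13, limma adjusted p = 0.0351), with adjusted p = 0.0648 to 0.119 when 1 array other than undifferentiated replicate 3 was left out. Genes of the level of Dusp4 had a median difference of 0.22, opposite in sign. For the other lower calls the median at their level had the same sign: -0.10 for Dusp6, -0.08 for Spred1 and -0.06 for Frs2.

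The ETS factors did not pass. Etv5 was 9.23, 9.46 and 9.66 in differentiated cells, against 10.31, 10.36 and 9.60 in undifferentiated cells, so that the groups overlapped only through undifferentiated replicate 3. Its difference of -0.64 lay just outside the threshold (limma adjusted p = 0.0519) and passed in 8 of 19 fits. It was -0.89 without undifferentiated replicate 3 (limma adjusted p = 0.000155) and -0.15 against that array alone. Etv4, which is induced beside Etv5 in many FGF-responsive tissues, was 10.02, 9.99 and 9.97 in differentiated cells, against 9.70, 9.62 and 10.16 in undifferentiated cells (difference 0.16, limma adjusted p = 0.47).

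**Figure D3:**
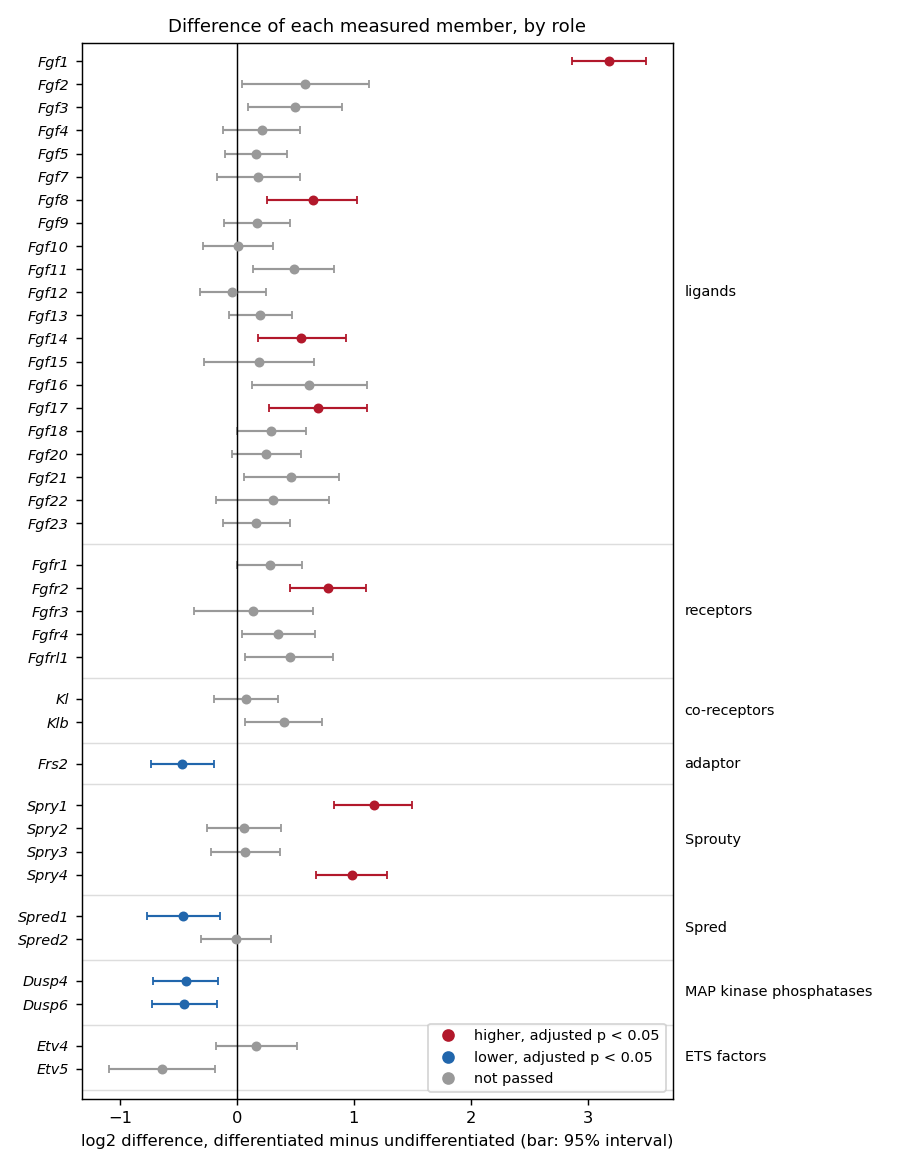
Log2 difference, differentiated minus undifferentiated, of the 39 measured members with its 95% interval from limma, grouped by role; red marks members called higher, blue those called lower and grey those that did not pass. Fgf1 lies at 3.18, Spry1 at 1.17, Spry4 at 0.98 and Fgfr2 at 0.78, while the 4 lower calls lie between -0.47 and -0.44.

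Members differed in how undifferentiated replicate 3 stood to the other arrays. For Fgf1, Fgfr2, Spry1, Spry4, Frs2, Spred1, Dusp4 and Dusp6 the differentiated mean lay on the same side of replicate 3 and of replicates 1 and 2, and the distance from replicate 3 was the larger one for Spry1, Spry4, Frs2, Spred1 and Dusp4. For Fgf2, Fgf7, Fgf10, Fgf15, Fgf22, Spry3, Spred2 and Etv4 it was below replicate 3 and above the mean of replicates 1 and 2, and for Fgf12, Fgfr3 and Spry2 the reverse. The differentiated mean was above undifferentiated replicate 3 for 26 members and above the mean of replicates 1 and 2 for 31 members, of 39. The median difference of the members was 0.12 from replicate 3 and 0.33 from replicates 1 and 2, whereas that of all genes was 0.07 from either. Without replicate 3, 20 members were called higher and 5 lower, beside 24.8% and 20.2% of all genes, in a fit where array number and differentiation coincide. Among the 4 arrays whose number starts alike, 3 differentiated and undifferentiated replicate 3, 5 members were called higher and 3 lower, beside 8.42% and 8.17% of all genes, where the lone undifferentiated array is assumed to vary like the others. Summed marker levels also placed undifferentiated replicate 3 nearer the differentiated arrays than replicates 1 and 2, for osteoblast markers as for several other lists. Each sum mostly follows the brightest genes of its list, for osteoblasts Col1a1 and Col1a2 (differences 0.07 and 0.03). Of the 4 called osteoblast markers, replicate 3 was the nearest undifferentiated array for Bglap (9.84) and Pth1r (9.64). It was not the nearest for Alpl (9.26) or Sp7 (8.95). The log2 of the summed osteoblast markers was 17.27 to 17.30 in differentiated cells, against 17.16, 17.16 and 17.27 in undifferentiated replicates 1 to 3. That of the skeletal muscle markers was 11.94 to 12.00 in differentiated cells, against 11.36, 11.37 and 11.80 in undifferentiated replicates 1 to 3. That of the epithelial markers was 11.20 to 11.28 in differentiated cells, against 10.76, 10.91 and 11.17 in undifferentiated replicates 1 to 3. That of the endothelial markers, of which 3 of 5 were above the control throughout, was 10.78 to 10.95 in differentiated cells, against 10.45, 10.50 and 10.71 in undifferentiated replicates 1 to 3. The sums of the chondrocyte and macrophage markers lay the other way. Among the chondrocyte markers the brightest, Sox9, was called lower, while 2 others, Acan and Comp, were called higher. The chondrocyte sum was 12.41 to 12.70 in differentiated cells, against 12.84, 12.84 and 12.70 in undifferentiated replicates 1 to 3, and the macrophage sum was 10.07 to 10.14 in differentiated cells, against 10.22, 10.21 and 10.14 in undifferentiated replicates 1 to 3. Osteocyte and adipocyte sums differed less. They were 14.81 to 15.01 and 11.12 to 11.34 in differentiated cells, against 14.76 to 14.80 and 11.12 to 11.17 in undifferentiated cells. The osteocyte sum was mostly Pdpn (difference -0.04) and so hides the 4.64-fold higher Dmp1. Of the adipocyte markers 1 was called, Pparg, which was 1.65-fold higher (limma adjusted p = 0.0355). Of the macrophage markers 1 was called, Cd14, which was 1.53-fold lower (limma adjusted p = 0.0172). All 4 measured muscle and all 5 epithelial markers were above the control on every array, and 1 marker of each of these lists was called higher. Their part in the ligand values was not tested.

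**Figure D4:**
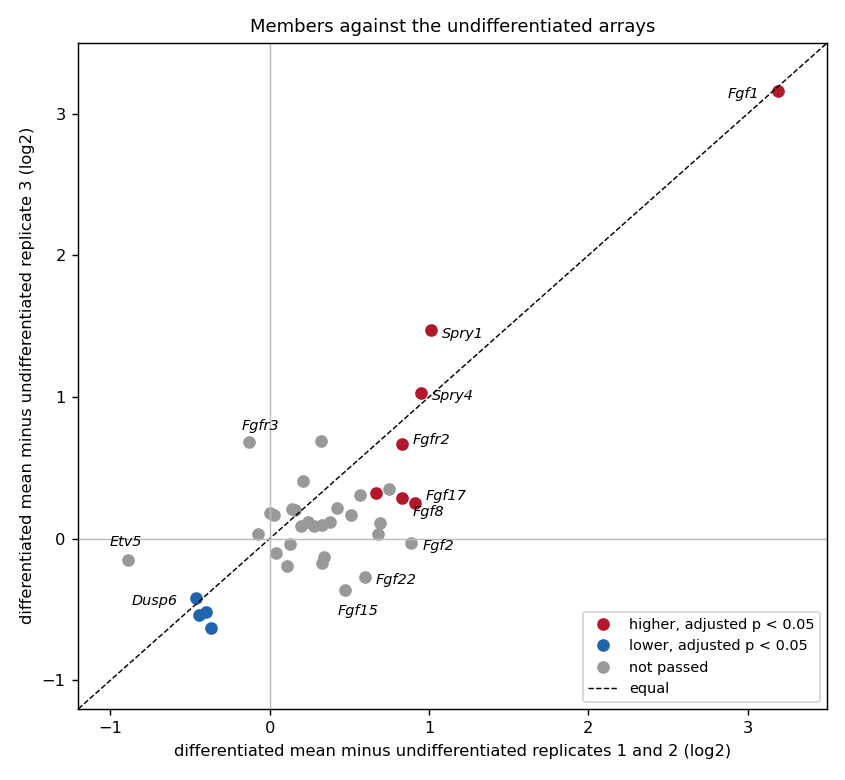
For each of the 39 members, the differentiated mean minus undifferentiated replicates 1 and 2 (horizontal, log2) and minus undifferentiated replicate 3 (vertical, log2), coloured by call in the fit of all 6 arrays; the dashed line marks equal differences. Fgf1, Spry4 and Dusp6 lie near the line, Fgf8 and Fgf17 lie below it, and Fgf2, Fgf15 and Fgf22 fall below 0 on the vertical axis.

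The rest of the pathway was read from a list of 51 further genes, of which 49 were measured. All 49 were above the control on all 6 arrays, while per array 5.61% to 6.80% of all features were at or below it. Of the 49 genes, 3 were called higher, 8 lower and 38 did not pass, beside 8.58% of all genes called higher and 10.9% lower. In either direction 22.4% of the 49 were called, beside 19.5% of all genes. Their median difference was -0.01. Cbl, Hs6st2, Fgfbp1, Fgfbp3 and Egr1 were among those that passed in all 19 fits.

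Among 19 adaptors and members of the RAS-ERK core, 3 were called lower and none higher, beside 10.9% and 8.58% of all genes. Cbl, a ubiquitin ligase that takes activated receptors to degradation, was 11.68, 11.69 and 11.84 in differentiated cells, against 12.32, 12.88 and 12.55 in undifferentiated cells, or 1.80-fold lower (limma adjusted p = 0.0046). Mapk3, which encodes ERK1, gave 0.42 without passing (limma adjusted p = 0.0825). Of 12 heparan sulfate genes, 2 were called lower, beside 10.9% of all genes, namely the sulfotransferases Hs6st2 and Hs2st1. Hs6st2 was 8.93, 9.76 and 9.46 in differentiated cells, against 10.35, 10.51 and 10.62 in undifferentiated cells. It was 2.16-fold lower (limma adjusted p = 0.00341) and Hs2st1 1.51-fold lower (limma adjusted p = 0.018). Both enzymes place the sulfates that FGFs and their receptors bind. Hs2st1 did not pass with quantile normalization or cyclic loess, or without differentiated replicate 1, differentiated replicate 3 or undifferentiated replicate 2 (adjusted p up to 0.0925).

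Fgfbp1, a secreted carrier that frees FGFs from the matrix, was 8.74, 8.73 and 9.37 in differentiated cells, against 6.80, 6.64 and 6.87 in undifferentiated cells. In undifferentiated cells it lay at the floor of measurement, as little as 0.04 above the control, so the 4.52-fold higher value in differentiated cells (limma adjusted p = 2.8e-05) is best read as a lower limit. Its relative Fgfbp3 was 9.23, 9.11 and 9.19 in differentiated cells, against 9.82, 10.01 and 10.15 in undifferentiated cells, or 1.76-fold lower (limma adjusted p = 0.00236). The 2 carrier genes were thus called in opposite directions. Flrt1, a transmembrane partner of FGF receptors, was 1.39-fold higher (limma adjusted p = 0.0262), with adjusted p up to 0.109 over the fits and no call in 6 of 19.

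Of 10 nuclear targets and related feedback genes, 1 was called higher and 2 lower, beside 8.58% and 10.9% of all genes. Egr1, an immediate-early gene induced by ERK, was 12.34, 12.31 and 12.52 in differentiated cells, against 11.09, 11.25 and 11.38 in undifferentiated cells, or 2.22-fold higher (limma adjusted p = 0.000302). Etv1, the third ETS factor of the Etv4 and Etv5 group, was 1.53-fold lower (limma adjusted p = 0.0156), without passing when differentiated replicate 1, differentiated replicate 3 or undifferentiated replicate 2 was left out (adjusted p up to 0.0833). Errfi1, an inhibitor of the EGF receptor, was 1.40-fold lower (limma adjusted p = 0.024), without passing in 7 of 19 fits (adjusted p up to 0.106). Dusp1, Dusp7, Ccnd1 and Myc gave differences of -0.14, -0.21, 0.04 and 0.23, none of which passed.

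**Figure D5:**
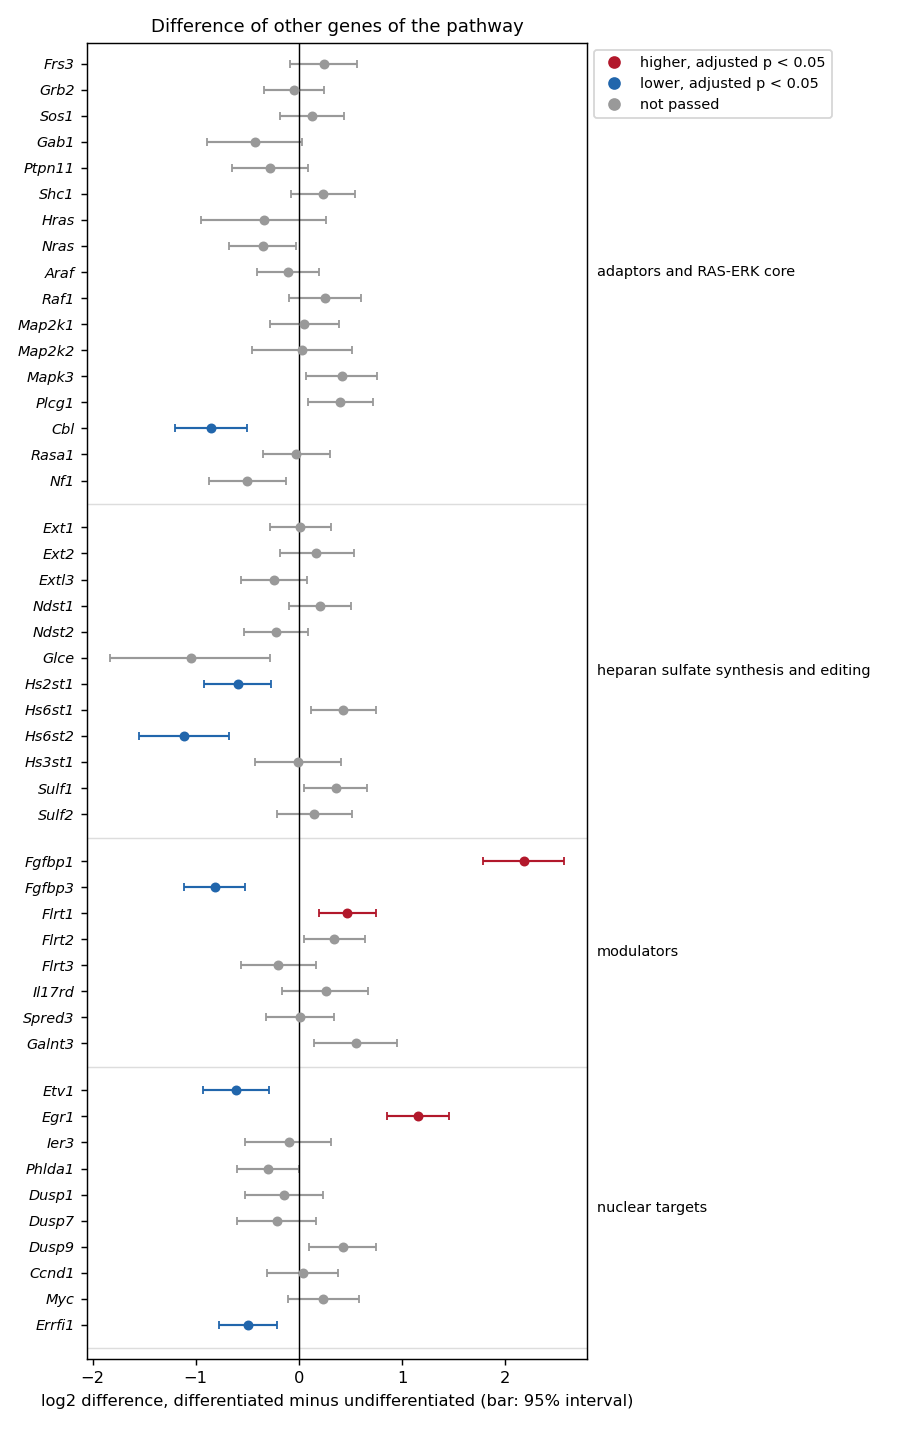
Log2 difference, differentiated minus undifferentiated, of 47 of the further pathway genes with its 95% interval from limma, in 4 groups; red marks genes called higher, blue those called lower and grey those that did not pass. Fgfbp1 lies at 2.18 and Egr1 at 1.15, while Hs6st2 lies at -1.11 and Cbl at -0.85.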

How the data were processed

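Single-colour NimbleGen arrays, labelled with Cy3, were read for 6 cultures. Per the submitters' processing notes the authors used RMA, which adjusts for background, normalizes and combines the probes of a feature, and the deposited unit is a linear intensity. No RMA version, genome build or set of jointly normalized arrays is stated in what was used here. The series table repeats the per-array values (largest difference 0).

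Each deposited intensity was converted to log2 and not normalized again. RefSeq transcripts, matched without version to a table of assembly GRCm38.p6, named 17849 of 42586 features (41.9%) and gave 17298 genes. Where a gene had several features, as 3 members did, the one with the highest mean stood for it. The 2 states were compared in limma 3.58.1 under R 4.3.3 (lmFit, then eBayes; 2-sided), adjusting by Benjamini-Hochberg across all named genes, with a threshold of 0.05 and 95% intervals from moderated standard errors. The script was tested on simulated data. Alternatives covered normalization, filters on dim features, array number, array weights, the variance prior, feature choice, a replicate block and each array left out. The fit with the array number's start as a covariate and the fit within the arrays that start alike give the same difference. Both set the differentiated mean against undifferentiated replicate 3, so they are not separate checks.

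Values in every array are given for called members, for Fgfr1, Fgf23 and Spry2, and for members above the control whose groups did not overlap, and called pathway genes are named, up to 4 per group by size. Other members shown in full, and Mapk3, Dusp1, Dusp7, Ccnd1 and Myc, were chosen after their values were seen. The members and lists were chosen with earlier results of these data known. With 3 arrays per group precision is limited, and p-values measure only the spread between these samples, which may be partly technical. Values of some pathway genes are not reported here.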

Additional observations from a re-analysis of the deposited data

How the results depend on the processing

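With 1 array left out, members called higher numbered 4 to 20 and lower 0 to 5. Pathway genes called higher numbered 2 to 8 and lower 4 to 13. Beside these, 2.78% to 24.8% of all genes were called higher and 5.05% to 20.2% lower. The highest counts and shares came without undifferentiated replicate 3, where array number and differentiation coincide. Array weights, which gave that array the least weight (0.24), called 22 members and 9 pathway genes higher and 15 pathway genes lower, beside 28% of all genes higher and 20.8% lower. Members called lower numbered 2 with cyclic loess, beside 10.4% of all genes. A minimum log2 difference of 1 left 2 members higher and 0 lower (limma; 20 members had an unadjusted p under 0.05), and 2 pathway genes lower. Pathway genes called higher numbered 7 with quantile normalization and with cyclic loess, beside 8.71% and 7.15% of all genes. They numbered 6 with the array number's start as a covariate, beside 8.73% of all genes. For 12 members, none of them called, the log2 difference changed sign. With the start as a covariate and within the 4 arrays alike it was -0.03 for Fgf2, -0.13 for Fgf7, -0.19 for Fgf10, 0.03 for Fgf12, -0.36 for Fgf15, -0.27 for Fgf22, -0.04 for Spry3 and -0.17 for Etv4. Quantile normalization gave -0.05 for Fgf10, -0.01 for Kl, -0.0039 for Spry2 and 0.09 for Spred2. Cyclic loess gave -0.07 for Fgf10, -0.02 for Kl, -0.06 for Spry2 and 0.10 for Spred2. Equal medians gave -0.04 for Fgf10, and array weights gave -0.05 for Fgfr3 and Spry2 and -0.0028 for Kl. With 1 array left out the ranges were -0.09 to 0.11 for Fgf10, -0.12 to 0.03 for Fgf12, -0.01 to 0.47 for Fgf15, -0.13 to 0.30 for Fgfr3, -0.07 to 0.13 for Spry2, -0.01 to 0.13 for Spry3 and -0.11 to 0.05 for Spred2. The cause of these changes was not tested. Members above the control on all arrays were 34, and 29 to 35 by the other margins. Replicate numbers did not pair the samples (correlations of same-numbered deviations 0.02, 0.13 and 0.07). A replicate block gave 8 members higher and 4 lower, and 3 and 10 pathway genes, beside 9.03% and 10.9% of all genes. Signals near the control (Fgf9, Fgf10, Fgf12, Fgf23, Kl, and Fgfbp1 in undifferentiated cells) limit what their differences can show.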
